A study of Mus musculus with 11 samples.

Results

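Pre-mRNA splicing and mRNA export genes were followed in the hypothalamus of male mouse pups at P21. There were 6 samples whose dams ate a high-fat diet (HFD) and 5 whose dams ate standard chow (CO). The members are all mouse genes whose symbol begins with Srsf, Hnrnp, Snrp, Sf3a, Sf3b, U2af, Prpf, Thoc or Rbm (Rbmy genes left out), which is a choice by name and not by any measured value. The array carried 113 such genes, and 110 of the 17193 genes tested passed a filter that asked for a signal well above background on 5 or more of 11 arrays. Rbm31y, Rbm44 and Rbm46 stayed below that limit, and their probes were well above background on 0 of 6 HFD arrays and on 4, 0 and 1 of 5 CO arrays. Each gene was represented by its brightest probe, and all but 3 members (Rbm20, Rbm39 and Rbm41) were well above background on all 11 arrays. Rbm39 is among the 3 only because its spot on 1 CO array was dropped as an outlier. It was well above background on the 6 HFD and 4 CO arrays that remained. Rbm3os, a non-coding RNA gene beside Rbm3, entered through its symbol alone.

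All mice were C57BL/6N males. Dams of the HFD group ate the high-fat diet from weaning through mating, gestation and lactation, dams of the CO group ate standard chow over the same time, and the offspring were killed at P21. The hypothalamus was dissected as a whole, so each sample holds neurons, glia and vessels together, and fewer cells of a type and less RNA per cell cannot be told apart. The labels do not say whether a sample is a single animal or which samples share a litter. By the methods of the paper at most 2 offspring of a dam were used, so littermates may be among the samples. The p-values here therefore reflect only how far these samples scatter. The CO labels carry a leading number that 3 and 2 samples share, while the HFD labels carry none.

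Splicing removes introns from the primary transcript. The U1 particle marks the 5′ splice site, the U2AF dimer the 3′ splice site and the U2 particle, with its SF3A and SF3B parts, the branch point, after which the particle of U4, U6 and U5 joins and the complex around Prpf19 takes part in activation. SR proteins, whose genes are named Srsf, mostly help exons to be recognised, and hnRNP proteins often oppose them. The THO complex is loaded onto transcripts during transcription and splicing and hands them over for export from the nucleus. Neurons depend on these proteins for the many alternative exons of ion channels, receptors and adhesion molecules.

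Of the 110 members, 45 were higher and 33 lower in HFD offspring at an adjusted p under 0.05 (limma with Benjamini-Hochberg adjustment over all genes tested), and 32 did not pass. The share was 40.9% for higher, where 22.2% of all genes tested were called higher, and 30.0% for lower, where 44.2% of all genes were called lower. In either direction 66.4% of all genes were called. The median log2 difference (HFD minus CO) was 0.10 over the members and -0.17 over all genes tested. In 36 members all HFD values exceeded all CO values and in 22 all HFD values fell short of all CO values, and over all genes these shares were 16.1% and 30.5% (46.6% in either direction). At least 2-fold differences past the threshold were found upwards in 15 members (13.6%, against 5.61% of all genes) and downwards in 3 members (2.73%, against 10.0% of all genes).

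These counts are relative to the 75th percentile of each array, to which every log2 value below is scaled, so that 0 means a signal at that percentile. The scaling sets the split. With scaling to the median, 53 members were higher and 23 lower (48.2% and 20.9%), where all genes had 24.2% and 36.9%. With scaling to 8 bright spike-in probes, 14 members were higher and 80 lower (12.7% and 72.7%), where all genes had 5.50% and 83.7%, the background of the spike-in counts given below for each family. Spike-in scaling moved the median of all genes by -0.68 on the log2 scale, and the members' median then stood at -0.58 beside -0.85 for all genes. The distance between these medians was 0.27 under the main and the spike-in scaling. It could not differ between them, because each scaling shifts all genes of an array by the same amount. With normexp background correction the distance was 0.16. Signal strength also differed. When all genes tested were cut into 3 equal bins by mean signal, 61.8% of the members lay in the brightest bin. Within that bin 38.2% of 68 members and 22.1% of all genes were higher in HFD offspring. In the middle bin the shares were 48.4% of 31 members and 28.2% of all genes, and in the dimmest bin 36.4% of 11 members and 16.3% of all genes.

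The arrays of both groups were scanned 337 days apart, on different slides and with different extraction protocols of the scanner software, so group and scan session cannot be told apart. Mouse spots well above background made up 71.8 to 77.4% of spots on HFD arrays and 82.5 to 85.7% on CO arrays. Correlations between arrays were 0.992 to 0.995 within HFD, 0.986 to 0.994 within CO and 0.962 to 0.976 between the groups. The 22 hypothalamic markers were all measured, with 6 higher, 3 lower and 13 not past the threshold. Dissection markers moved as well. Of 12 striatal markers 0 were higher and 8 lower, with a mean level relative to the average of all samples of -1.19 to 0.17 in HFD and -0.58 to 1.44 in CO samples, and of 10 thalamic markers 7 were higher and 1 lower, with 0.08 to 0.44 in HFD and -0.59 to -0.01 in CO samples. Oligodendrocyte markers were lower in 8 of 12 and higher in 1 (-0.17 to 0.07 in HFD, -0.06 to 0.23 in CO), and neuronal markers higher in 7 of 12 and lower in 2 (0.05 to 0.28 in HFD, -0.27 to -0.10 in CO). Microglial markers were higher in 3 and lower in 6 of 11 (-0.24 to 0.08 in HFD, 0.03 to 0.15 in CO), red blood cell markers lower in 4 of 4 (-0.38 to 0.03 in HFD, 0.06 to 0.38 in CO), endothelial and pericyte markers higher in 6 and lower in 3 of 12 (-0.04 to 0.18 in HFD, -0.12 to 0.05 in CO), and markers of choroid plexus and ependyma higher in 0 and lower in 3 of 10 (-0.85 to 0.16 in HFD, -0.08 to 0.35 in CO). Astrocyte markers were higher in 3 and lower in 3 of 12, and pituitary markers higher in 3 and lower in 1 of 6. Every marker of these lists on the array passed the filter on dim signals except 3 of 9 pituitary markers, and their part in the results on splicing genes was not tested.

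**Figure D1:**
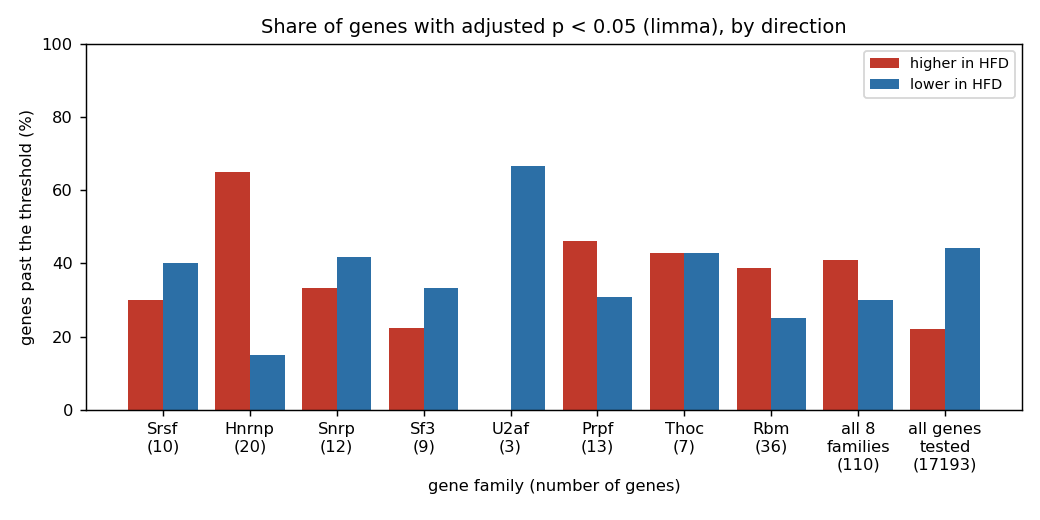
Share of genes (percent, vertical axis) past an adjusted p of 0.05 in each gene family, in all 110 members and in all 17193 genes tested, higher in HFD (red) and lower in HFD (blue), with the number of genes in brackets. The Hnrnp genes had 65.0% higher and 15.0% lower, where all genes had 22.2% and 44.2%. With spike-in scaling 5 and 12 of 20 Hnrnp genes were higher and lower, where all genes had 5.50% and 83.7%.

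**Figure D2:**
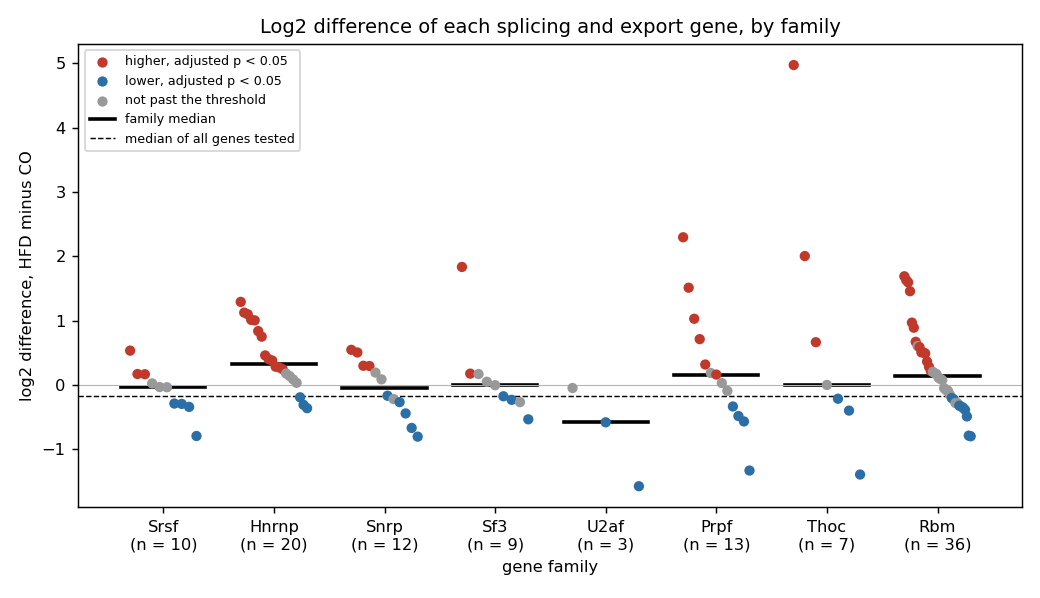
Log2 difference (HFD minus CO, vertical axis) of each member, 1 point per gene, by family. Black bars are family medians, the dashed line is the median of all genes tested (-0.17), and Thoc2l lies highest at 4.97 and U2af2 lowest at -1.58.

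Promoter sequences of RefSeq (GRCm38.p6) were matched by gene ID for 91 of the 110 members, each 250 bases before to 50 bases after a start. They are shown for 2 of the genes that were most clearly higher, for 1 whose probes split by transcript record, and for 2 that were lower, since members that moved in the same direction can be compared in what their starts hold. Capitals mark every match, on either strand, to the letters GGGCGG, known as the GC box, to CCAAT, the motif of factor NF-Y, to TATAAA of the classical core promoter, and to TGACG, the core of the cAMP response element. Matches to GGGCGG overlapped each other in Hnrnpa3, and matches to TGACG did so in Snrpa.
Sf3b1 (higher, chr1:55027429-55027728, minus strand): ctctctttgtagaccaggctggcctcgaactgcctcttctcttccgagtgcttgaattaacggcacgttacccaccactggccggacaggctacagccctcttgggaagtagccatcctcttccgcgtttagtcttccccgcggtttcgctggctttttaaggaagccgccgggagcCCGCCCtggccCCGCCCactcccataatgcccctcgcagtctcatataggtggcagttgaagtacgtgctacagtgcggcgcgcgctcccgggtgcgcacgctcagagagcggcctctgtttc
Prpf39 (higher, chr12:65036084-65036383, plus strand): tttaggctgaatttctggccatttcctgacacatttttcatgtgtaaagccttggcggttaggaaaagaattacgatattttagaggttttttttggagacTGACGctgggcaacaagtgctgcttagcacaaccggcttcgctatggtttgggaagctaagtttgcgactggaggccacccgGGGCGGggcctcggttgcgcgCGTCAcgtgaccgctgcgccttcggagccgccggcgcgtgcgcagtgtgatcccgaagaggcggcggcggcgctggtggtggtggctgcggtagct
Hnrnpa3 (higher, chr2:75659009-75659308, plus strand): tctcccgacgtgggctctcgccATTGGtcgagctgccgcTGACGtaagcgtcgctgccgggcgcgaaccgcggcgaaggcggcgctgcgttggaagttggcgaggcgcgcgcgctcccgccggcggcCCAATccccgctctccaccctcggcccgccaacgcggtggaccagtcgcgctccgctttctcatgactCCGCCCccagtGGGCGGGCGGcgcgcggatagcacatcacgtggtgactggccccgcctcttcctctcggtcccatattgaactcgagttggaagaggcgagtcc
Prpf19 (lower, chr19:10894981-10895280, plus strand): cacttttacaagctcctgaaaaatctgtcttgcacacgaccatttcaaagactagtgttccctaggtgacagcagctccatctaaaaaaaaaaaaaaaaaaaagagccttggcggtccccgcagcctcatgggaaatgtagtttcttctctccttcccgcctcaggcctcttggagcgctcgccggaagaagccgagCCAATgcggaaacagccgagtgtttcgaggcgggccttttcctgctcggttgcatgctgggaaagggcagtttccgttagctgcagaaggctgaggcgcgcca
Snrpa (lower, chr7:27196222-27196521, minus strand): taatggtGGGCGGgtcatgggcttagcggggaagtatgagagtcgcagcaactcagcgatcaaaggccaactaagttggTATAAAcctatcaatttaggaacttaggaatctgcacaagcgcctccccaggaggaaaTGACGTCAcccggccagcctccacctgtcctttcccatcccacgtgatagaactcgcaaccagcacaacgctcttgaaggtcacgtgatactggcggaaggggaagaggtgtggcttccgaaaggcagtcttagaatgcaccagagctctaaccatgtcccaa

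No single motif was common to the promoters of higher members. A GC box stood in 61.8% of 34 promoters of higher members, in 56.7% of 30 of lower members and in 35.9% of all 27025 promoters of this length. CCAAT was found in 55.9% of higher members, 46.7% of lower members and 37.9% of all promoters. TATAAA stood in 11.8%, 13.3% and 14.2% of them in the same order. The core TGACG was held by 41.2% of higher members, 46.7% of lower members and 21.0% of all promoters. Of 27 promoters of members not past the threshold, 59.3% held a GC box, 33.3% CCAAT, 7.41% TATAAA and 55.6% TGACG. The promoters of Sf3b1, Prpf39 and Hnrnpa3 each held a GC box and none held TATAAA, the promoter of Prpf19 held CCAAT only, and that of Snrpa held all but CCAAT. A match describes letters and is neither a bound site nor a cause.

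Of 10 Srsf genes, which encode SR proteins, 3 were higher (Srsf10, Srsf1, Srsf3), 4 lower (Srsf5, Srsf6, Srsf4, Srsf7) and 3 (Srsf9, Srsf12, Srsf2) not past the threshold. These counts are close to the shares of all genes, 22.2% higher and 44.2% lower, and with spike-in scaling 0 were higher and 9 lower, where 83.7% of all genes were lower. Srsf5 read 2.08, 2.28 and 2.42 as lowest, median and highest of the HFD samples and 3.15, 3.13, 3.05, 2.98 and 3.03 in the 5 CO samples. The groups did not overlap, and this SR protein gene was 1.74-fold lower in HFD offspring (log2 difference -0.80, SE 0.067, adjusted p = 2.29e-06). In HFD samples Srsf7 ran from 1.18 over a median of 1.26 to 1.36, against 1.43, 1.67, 1.44, 1.57 and 1.66 in the 5 CO samples. The groups stayed apart narrowly for Srsf7, whose protein also serves as an adaptor for mRNA export (log2 difference -0.29, SE 0.065, adjusted p = 0.0019). Signals of Srsf10 had a lowest, median and highest value of -1.60, -1.50 and -1.36 in HFD samples, against -1.97, -2.19, -1.89, -1.93 and -2.14 in CO samples. No CO sample reached the lowest HFD sample for Srsf10, which encodes an SR protein that can repress splicing (log2 difference 0.53, SE 0.075, adjusted p = 8.16e-05), but spike-in scaling gave a log2 difference of -0.14 and the mean over its probes 0.10, both short of the threshold. Srsf1 and Srsf3 differed by 0.17 and 0.16 with overlapping groups on their brightest probes, while the other 2 probes of Srsf1, of the same transcript record, gave 1.01 (adjusted p = 4.95e-05) and 0.72 (adjusted p = 4.98e-04, limma over probes) without overlap. Srsf4 and Srsf6 differed by -0.30 and -0.34, the groups overlapping for Srsf6.

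Of 20 Hnrnp genes, 13 were higher and 3 (Hnrnpk, Hnrnpc, Hnrnpab) lower, with a median log2 difference of 0.33, and 5 were at least 2-fold higher, whereas with spike-in scaling 5 were higher and 12 lower (median -0.35). Their median lay 0.50 above that of all genes, a distance that these scalings cannot change. Among all genes 22.2% were higher and 44.2% lower, and 5.50% and 83.7% with spike-in scaling. Hnrnpa3 spanned 3.57 to 3.74 in HFD samples with a median of 3.65, against 2.45, 2.04, 2.59, 2.48 and 2.24 in CO samples. Samples of both groups lay far apart, and Hnrnpa3, a relative of Hnrnpa1 known in neurons for RNA transport, was 2.45-fold higher in HFD offspring (log2 difference 1.29, SE 0.093, adjusted p = 7.72e-07). Hnrnpu read 2.18, 2.28 and 2.39 as lowest, median and highest of the HFD samples and 1.27, 1.10, 1.29, 1.25 and 0.96 in the 5 CO samples. HFD values exceeded all CO values for Hnrnpu, which encodes a large nuclear scaffold protein, by 2.14-fold (log2 difference 1.10, SE 0.072, adjusted p = 4.40e-07). In HFD samples Hnrnpa1 ran from 1.59 over a median of 1.92 to 2.02, against 0.81, 0.86, 0.89, 0.85 and 0.84 in the 5 CO samples. Hnrnpa1, the textbook splicing silencer protein of this family, had its 5 CO samples within a narrow band and was 2.01-fold higher (log2 difference 1.01, SE 0.08, adjusted p = 1.47e-06). The 3 genes of hnRNP H, which binds runs of G, were all higher (Hnrnph2 short of the threshold with spike-in scaling), with log2 differences of 1.12 for Hnrnph1, 1.00 for Hnrnph3 and 0.84 for Hnrnph2 and no overlap between groups. Hnrnpa2b1 was also higher by 0.75 without overlap, but was not among the 5 Hnrnp genes that were higher with spike-in scaling. On the other side, Hnrnpk, whose protein binds C-rich RNA, differed by -0.36, and Hnrnpc, whose protein binds runs of U, by -0.31, both past the threshold but with overlapping groups. Hnrnpl, Hnrnpll, Hnrnpf and Hnrnpa0 did not pass, with differences of 0.14, 0.08, 0.03 and 0.17.

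The Snrp genes, which encode proteins of the U1 and U2 particles and of the Sm ring that all major spliceosomal RNAs except U6 carry, were higher in 4 and lower in 5 of 12, and with spike-in scaling higher in 0 and lower in 10. The shares were 33.3% and 41.7%, beside 22.2% and 44.2% of all genes, and with spike-in scaling 83.7% of all genes were lower. Members of the Sm ring went in opposite directions, except that none was higher with spike-in scaling. Signals of Snrpd1 had a lowest, median and highest value of 2.33, 2.59 and 2.70 in HFD samples, against 1.96, 1.99, 2.08, 2.09 and 1.89 in CO samples. Snrpd1 was 1.46-fold higher without overlap (log2 difference 0.54, SE 0.074, adjusted p = 6.27e-05), although spike-in scaling gave -0.13 and no call. Snrpe and Snrpf were higher by 0.30 and 0.29, also without overlap. Snrpd3 spanned 0.62 to 1.64 in HFD samples with a median of 1.10, against 1.94, 1.76, 1.95, 1.93 and 1.92 in CO samples. Snrpd3 was 1.75-fold lower, and HFD replicate 1 stood nearest to the CO samples (log2 difference -0.81, SE 0.15, adjusted p = 5.42e-04). Snrpb read -0.10, 0.00 and 0.10 as lowest, median and highest of the HFD samples and 0.51, 0.50, 0.41, 0.33 and 0.50 in the 5 CO samples. Snrpb stayed below CO in every HFD sample and was 1.36-fold lower (log2 difference -0.45, SE 0.057, adjusted p = 3.95e-05). Snrpd2 differed by -0.17 with overlap, and Snrpg by 0.19, short of the threshold. In HFD samples Snrpa ran from 1.52 over a median of 1.60 to 1.69, against 2.38, 2.34, 2.16, 2.19 and 2.31 in the 5 CO samples. Snrpa, which encodes the A protein of the U1 particle, was 1.59-fold lower with the groups well separated (log2 difference -0.67, SE 0.058, adjusted p = 2.64e-06). Of the U2 particle's pair, Snrpb2 was higher by 0.50 without overlap. Snrpa1 gave 0.08 on its brightest probe, short of the threshold, and 0.34 on a probe of nearly the same brightness (adjusted p = 0.0024, limma over probes). Snrpn, the imprinted Sm gene of neurons, was lower by its brightest probe with a difference of -0.27 and overlapping groups.

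Among the genes of branch point recognition the largest difference was that of Sf3b1, whose protein clamps the U2 particle onto the branch point. Signals of Sf3b1 had a lowest, median and highest value of -0.35, -0.23 and -0.16 in HFD samples, against -2.01, -2.30, -1.89, -1.81 and -2.30 in CO samples. Every HFD sample lay more than 1 log2 unit above the highest CO sample, and Sf3b1 was 3.56-fold higher (log2 difference 1.83, SE 0.096, adjusted p = 1.18e-07). None of the other 8 Sf3 genes reached 2-fold. Sf3b3 spanned 1.84 to 2.13 in HFD samples with a median of 2.05, against 2.60, 2.62, 2.58, 2.42 and 2.55 in CO samples. Sf3b3, another subunit of the same complex, was 1.45-fold lower without overlap (log2 difference -0.54, SE 0.065, adjusted p = 2.70e-05). Sf3b2 read 3.32, 3.35 and 3.53 as lowest, median and highest of the HFD samples and 3.66, 3.57, 3.64, 3.51 and 3.66 in the 5 CO samples. Sf3b2 was lower with overlapping groups, HFD replicate 1 lying above the lowest CO sample (log2 difference -0.23, SE 0.056, adjusted p = 0.00317), and it missed the threshold when arrays were scaled to the median (-0.17, adjusted p = 0.0938). Sf3a3 was higher by 0.17 and Sf3a1 differed by -0.18, both with overlap, while Sf3a2, Sf3b4, Sf3b5 and Sf3b6 did not pass. With spike-in scaling 1 of the 9 Sf3 genes, Sf3b1, was higher and 8 were lower, where 83.7% of all genes were lower.

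At the 3′ splice site U2af2, which encodes the large U2AF subunit that binds the polypyrimidine tract, had the largest decrease of all members. In HFD samples U2af2 ran from -3.75 over a median of -3.50 to -3.27, against -1.83, -1.82, -1.94, -2.08 and -2.04 in the 5 CO samples. The groups were more than 1 log2 unit apart, and U2af2 was 2.99-fold lower in HFD offspring (log2 difference -1.58, SE 0.091, adjusted p = 1.88e-07). A second probe of U2af2 gave -1.80. Signals of U2af1l4 had a lowest, median and highest value of 0.94, 1.34 and 1.42 in HFD samples, against 1.61, 2.09, 1.52, 1.86 and 2.21 in CO samples. U2af1l4, a relative of the small subunit, was 1.5-fold lower without overlap, HFD replicate 1 being the lowest sample (log2 difference -0.58, SE 0.13, adjusted p = 0.00239). U2af1, the small subunit itself, differed by -0.05 and did not pass (adjusted p = 0.565).

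Among the 13 Prpf genes 6 were higher and 4 lower, and with spike-in scaling 2 were higher and 9 lower. The main shares were 46.2% and 30.8%, beside 22.2% and 44.2% of all genes. Prpf39, whose protein accompanies the U1 particle, had the largest increase among them. Prpf39 spanned 0.03 to 0.18 in HFD samples with a median of 0.12, against -2.17, -2.88, -1.56, -1.43 and -2.89 in CO samples. Prpf39 was 4.91-fold higher, with HFD samples close together and CO samples spread over more than 1 log2 unit (log2 difference 2.30, SE 0.26, adjusted p = 1.48e-05). The kinase gene Prpf4b was higher by 1.03 and Prpf38b by 0.71, both without overlap. Prpf19 read -1.22, -1.05 and -0.83 as lowest, median and highest of the HFD samples and 0.44, 0.22, 0.31, 0.33 and 0.24 in the 5 CO samples. Prpf19, the ubiquitin ligase at the centre of an activating complex, was 2.52-fold lower with the groups more than 1 log2 unit apart (log2 difference -1.33, SE 0.083, adjusted p = 2.95e-07). In HFD samples Prpf6 ran from 2.12 over a median of 2.19 to 2.35, against 2.87, 2.76, 2.84, 2.70 and 2.73 in the 5 CO samples. Prpf6, which encodes a bridge protein of the particle of U4, U6 and U5, was 1.48-fold lower without overlap (log2 difference -0.57, SE 0.059, adjusted p = 8.85e-06). Prpf40b and Prpf31 differed by -0.49 and -0.34, both past the threshold. Prpf8, the large protein at the catalytic centre, differed by -0.10 and did not pass (adjusted p = 0.243), nor did Prpf3 at 0.03 or Prpf4 at 0.18.

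**Figure D3:**
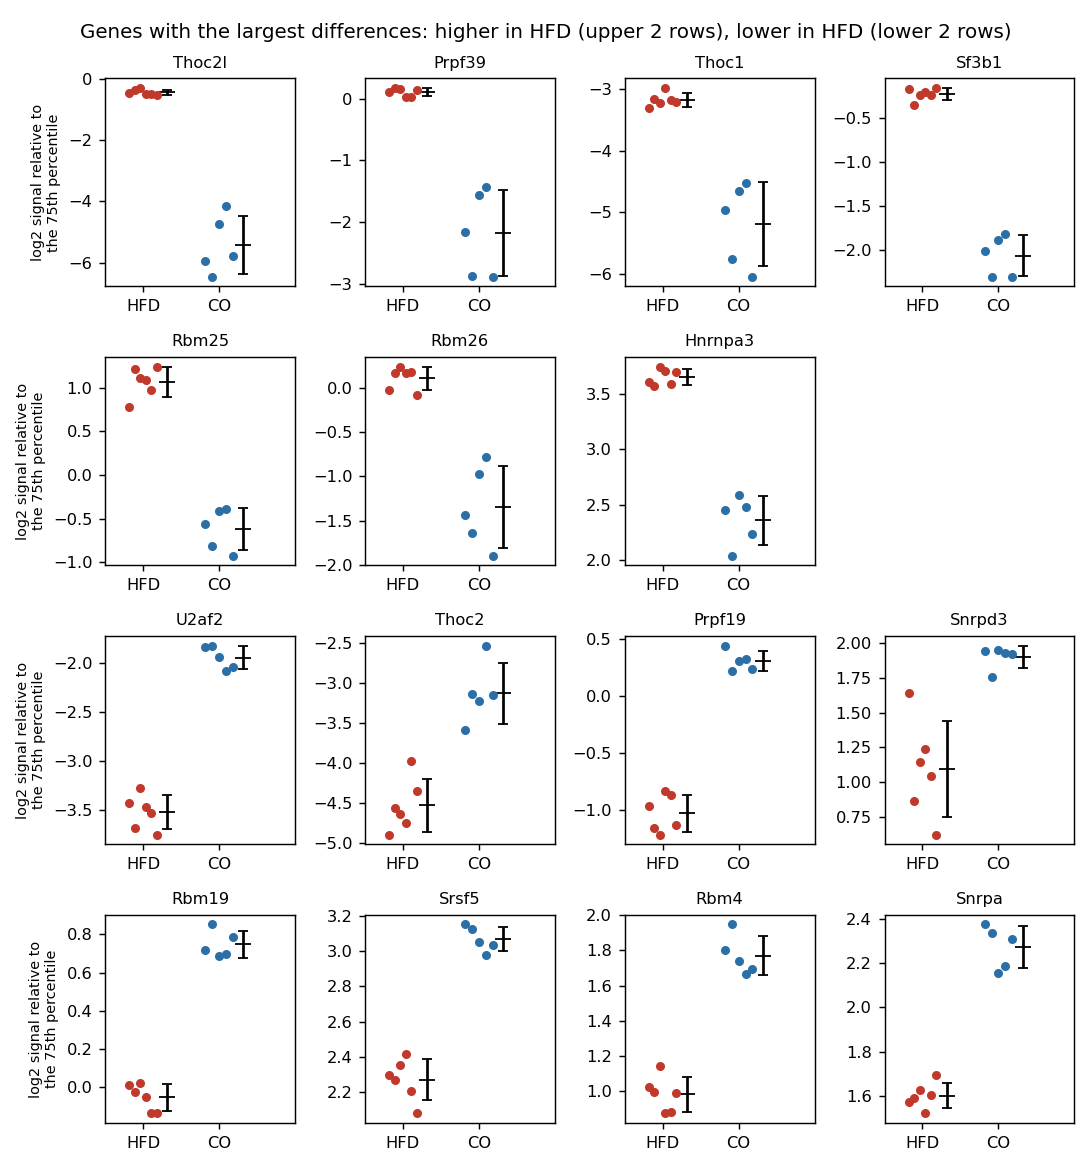
Log2 signal relative to the 75th percentile of each array (vertical axis, a scale of its own per gene) in each HFD sample (red) and CO sample (blue), with mean and SD beside the points, for 7 of the 8 largest increases and the 8 largest decreases among members that passed the threshold, were well above background on all arrays and did not overlap. The HFD samples of the higher genes lie closer together (Prpf39 from 0.03 to 0.18) than the CO samples (-2.89 to -1.43).

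The THO genes held both the largest increase of all members and a gene whose probes disagreed. Of 7 Thoc genes 3 were higher (Thoc2l, Thoc1, Thoc7), 3 lower (Thoc2, Thoc6, Thoc5) and Thoc3 did not pass with 0.00, and with spike-in scaling 2 were higher and 4 lower. Each main share was 42.9%, beside 22.2% higher and 44.2% lower among all genes. Signals of Thoc2l had a lowest, median and highest value of -0.52, -0.47 and -0.30 in HFD samples, against -5.94, -6.47, -4.75, -4.14 and -5.78 in CO samples. HFD and CO samples of Thoc2l, a gene that resembles Thoc2, lay more than 3 log2 units apart, a 31.4-fold higher level in HFD offspring (log2 difference 4.97, SE 0.34, adjusted p = 6.01e-07). Thoc1 spanned -3.31 to -2.99 in HFD samples with a median of -3.20, against -4.96, -5.75, -4.66, -4.52 and -6.04 in CO samples. Thoc1, a core subunit, was 4.01-fold higher, CO replicates 2 and 5 being the lowest samples (log2 difference 2.00, SE 0.25, adjusted p = 3.30e-05). Thoc7 read 2.65, 2.88 and 2.95 as lowest, median and highest of the HFD samples and 2.18, 1.99, 2.28, 2.24 and 2.21 in the 5 CO samples. Thoc7, a small subunit, was 1.58-fold higher without overlap (log2 difference 0.66, SE 0.072, adjusted p = 1.20e-05), a difference that was -0.01 with spike-in scaling.

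Thoc2, the scaffold subunit of the complex, gave opposite results on its 2 probes, both assigned to the same transcript record. In HFD samples Thoc2 ran from -4.89 over a median of -4.60 to -3.97, against -3.59, -3.14, -3.23, -2.53 and -3.15 in the 5 CO samples. On this slightly brighter probe every HFD sample lay below every CO sample (2.63-fold lower, log2 difference -1.40, SE 0.19, adjusted p = 7.31e-05). The other probe read -2.82, -2.65 and -2.45 as lowest, median and highest of the HFD samples and -5.62, -6.16, -5.25, -4.82 and -6.00 in CO samples. There all HFD values exceeded all CO values, with a log2 difference of 2.92 (SE 0.21, adjusted p = 7.29e-07, limma over probes). The mean of both probes differed by 0.76 in the upward direction (adjusted p = 0.0024), so no direction can be given for Thoc2. Whether a probe of Thoc2 or Thoc2l also binds the transcript of the other gene was not tested, since probe sequences were not used here, and the same holds for Rbm4 with Rbm4b and Rbm12b1 with Rbm12b2. Thoc6 and Thoc5 differed by -0.40 and -0.22 without overlap.

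**Figure D4:**
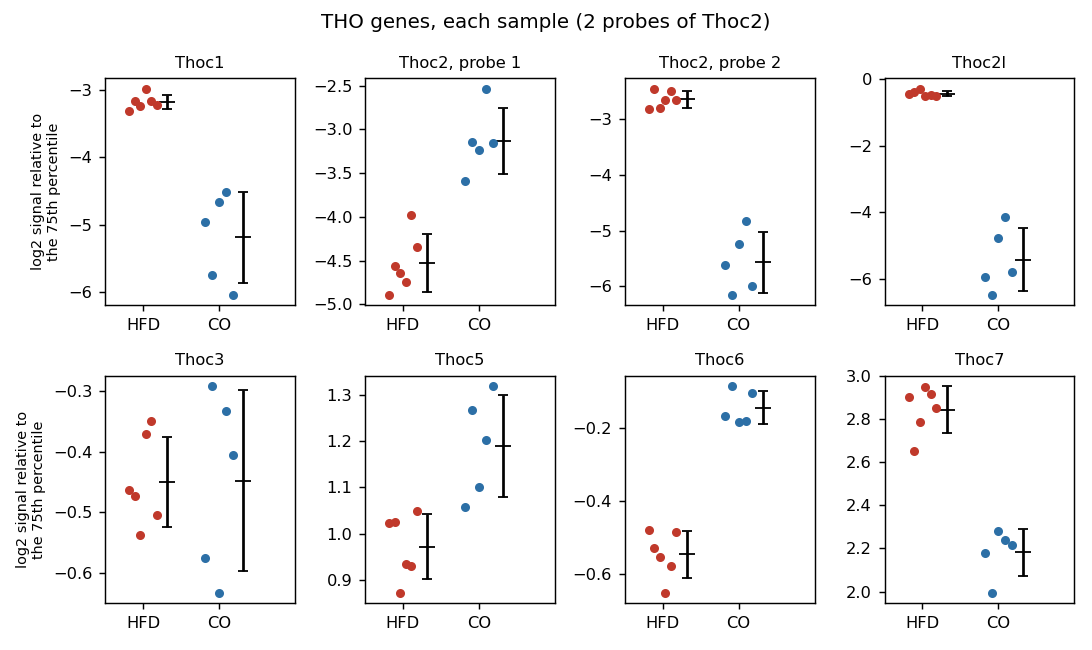
Log2 signal relative to the 75th percentile of each array (vertical axis, a scale of its own per panel) of the THO genes in each HFD sample (red) and CO sample (blue), with mean and SD, and both probes of Thoc2. Probe 1 of Thoc2 averaged -4.53 in HFD and -3.13 in CO samples, and probe 2 averaged -2.64 in HFD and -5.57 in CO samples.

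The Rbm genes share the RNA recognition motif rather than a place in the spliceosome. Of 36 Rbm genes 14 were higher, 9 lower and 13 not past the threshold (median 0.14), and with spike-in scaling 4 were higher and 25 lower. The main shares were 38.9% and 25.0%, beside 22.2% and 44.2% of all genes. Signals of Rbm25 had a lowest, median and highest value of 0.78, 1.10 and 1.24 in HFD samples, against -0.55, -0.81, -0.41, -0.39 and -0.92 in CO samples. Rbm25, which regulates alternative 5′ splice sites, was 3.22-fold higher with a clear gap between the groups (log2 difference 1.69, SE 0.12, adjusted p = 6.26e-07). Rbm39 spanned 3.50 to 3.66 in HFD samples with a median of 3.54, against 2.06, 1.38, 2.40 and 2.07 in CO samples. Rbm39, which encodes a relative of the large U2AF subunit, was 3.02-fold higher over 6 HFD and 4 CO samples, the spot of CO replicate 5 having been marked as an outlier and dropped (log2 difference 1.59, SE 0.16, adjusted p = 1.09e-05). Rbm26 read -0.08, 0.17 and 0.24 as lowest, median and highest of the HFD samples and -1.43, -1.64, -0.98, -0.79 and -1.90 in the 5 CO samples. Rbm26, which is linked to the nuclear RNA exosome, was 2.74-fold higher, with CO replicate 5 lowest (log2 difference 1.46, SE 0.18, adjusted p = 2.87e-05), and its relative Rbm27 by 0.97 on the log2 scale.

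In HFD samples Rbm41 ran from -6.57 over a median of -6.31 to -6.16, against -7.40, -8.65, -7.59, -7.59 and -8.61 in the 5 CO samples. Rbm41 was well above background on all 6 HFD arrays but on 3 of 5 CO arrays, and its 3.09-fold higher level (log2 difference 1.63, SE 0.23, adjusted p = 9.10e-05) became 0.24 on the log2 scale with an adjusted p of 0.726 under normexp background correction. Signals of Rbm6 had a lowest, median and highest value of 2.01, 2.19 and 2.26 in HFD samples, against 1.22, 1.28, 1.39, 1.47 and 1.07 in CO samples. Rbm6, a relative of the splicing regulators Rbm5 and Rbm10, was 1.85-fold higher without overlap (log2 difference 0.89, SE 0.077, adjusted p = 2.75e-06), and with spike-in scaling the difference was 0.21 and not past the threshold (adjusted p = 0.0866). Rbm5 and Rbm10 did not follow it, at 0.07 (not past the threshold) and -0.36 (lower, without overlap). Rbm4 spanned 0.87 to 1.14 in HFD samples with a median of 0.99, against 1.80, 1.95, 1.74, 1.66 and 1.70 in CO samples. Rbm4, a regulator of alternative splicing, was 1.73-fold lower without overlap (log2 difference -0.79, SE 0.07, adjusted p = 2.98e-06), while its near-identical relative Rbm4b differed by -0.09 and did not pass. Rbm19 read -0.14, -0.04 and 0.02 as lowest, median and highest of the HFD samples and 0.72, 0.85, 0.69, 0.69 and 0.79 in the 5 CO samples. Rbm19, which acts in ribosome formation rather than splicing, was 1.74-fold lower with the groups well separated (log2 difference -0.80, SE 0.055, adjusted p = 6.00e-07).

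Further Rbm genes gave smaller differences. Rbm15, an adaptor of RNA methylation, was higher by 0.51, Rbm18 by 0.50, Rbm12b2 by 0.59 and Rbm12b1 by 0.49, all without overlap. Rbm17, whose protein contacts the U2AF complex, was higher by 0.21 without overlap. Each of these increases was smaller in size than the shift of -0.68 that spike-in scaling gave all genes. Rbm14, a paraspeckle gene, differed by -0.49, Rbm38 by -0.39, Rbm15b by -0.34 and Rbm42 by -0.32, each of them lower and without overlap. Rbm8a, whose protein belongs to the exon junction complex, differed by 0.09 and did not pass. Rbm47 differed by 0.60 with an adjusted p of 0.0663, its HFD replicate 1 standing at -4.59 with the other HFD samples at -3.34 or above. Rbm3os differed by -0.28 and did not pass.

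Several members had more than 1 probe, which gives a measure of the same gene that the brightest probe does not use. Of 43 members with at least 2 tested probes, 11 had every probe called higher, 8 every probe called lower, 13 had some probes called in 1 direction and others not called, 6 had no probe called and 5 had probes called in opposite directions. These 5 are 11.6%, where 8.14% of 4560 genes with at least 2 tested probes had opposite calls. The median distance between the probes of a gene was 0.35 for members and 0.37 for all such genes on the log2 scale. Besides Thoc2 the 5 were Rbm20, Rbm3, Srsf10 and Snrpn.

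Rbm20, known for splicing of titin in the heart, was close to background. In HFD samples Rbm20 on its brightest probe ran from -7.36 over a median of -7.03 to -6.77, against -7.55, -7.22, -7.43, -7.31 and -7.46 in the 5 CO samples. This brighter probe, whose difference turned to -0.31 with spike-in scaling, was well above background on 4 of 6 HFD and 5 of 5 CO arrays, with a log2 difference of 0.36 (SE 0.11, adjusted p = 0.0139, limma over probes). Signals of Rbm20 on another probe had a lowest, median and highest value of -9.09, -8.99 and -8.64 in HFD samples, against -7.00, -7.44, -6.93, -7.28 and -7.37 in CO samples. This probe was not well above background on any HFD array and well above it on 5 of 5 CO arrays. It was at least 2.88-fold lower in HFD offspring (adjusted p = 5.19e-07), with the HFD mean set at the lowest signal well above background on each array, or at the probe's own where higher.

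Rbm3, a gene induced by cold, had 3 probes for 3 transcript records. Rbm3 on its brightest probe spanned 2.06 to 2.60 in HFD samples with a median of 2.26, against 1.62, 1.73, 1.72, 1.62 and 1.44 in CO samples. On this probe HFD samples lay above CO samples, except that spike-in scaling left no difference past the threshold (log2 difference 0.67, SE 0.11, adjusted p = 2.23e-04). Rbm3 on another probe read -6.06, -5.38 and -4.86 as lowest, median and highest of the HFD samples and -4.25, -4.50, -4.09, -4.59 and -4.79 in the 5 CO samples. This dim probe went the other way without overlap (-0.98, SE 0.23, adjusted p = 0.0028). The remaining probe of Rbm3 gave 0.27 and did not pass (adjusted p = 0.18).

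The 3 probes of Srsf10 gave 0.53, -0.73 and 0.50, all past the threshold, and the pair of opposite sign belonged to the same transcript record. The 3 probes of Snrpn gave -0.27, 0.27 and -0.31, all past the threshold and all small. Hnrnpa3 had 7 probes for 2 transcript records. All 5 probes of the first record were called higher, with log2 differences of 0.94 to 1.90, and both probes of the second gave 0.08 and 0.23 and did not pass. Hnrnpa1 showed a similar split, with 1.01 on the probe of the first record and 0.07 (adjusted p = 0.482) on that of the second. Hnrnpf gave 0.03 on its brightest probe, not past the threshold, and -0.96 (adjusted p = 5.60e-06) on a probe of another record. Srsf2 and Hnrnpa0, not called on their brightest probes, gave -0.40 and -0.58 on another probe, both called lower, and Rbm14 gave -1.41 on its second probe. For Srsf6, Srsf7, Prpf40b and Rbm18 the second probe gave 0.12, -0.01, -0.08 and -0.12 and did not pass. Differences between probes of the same gene were not themselves tested.

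**Figure D5:**
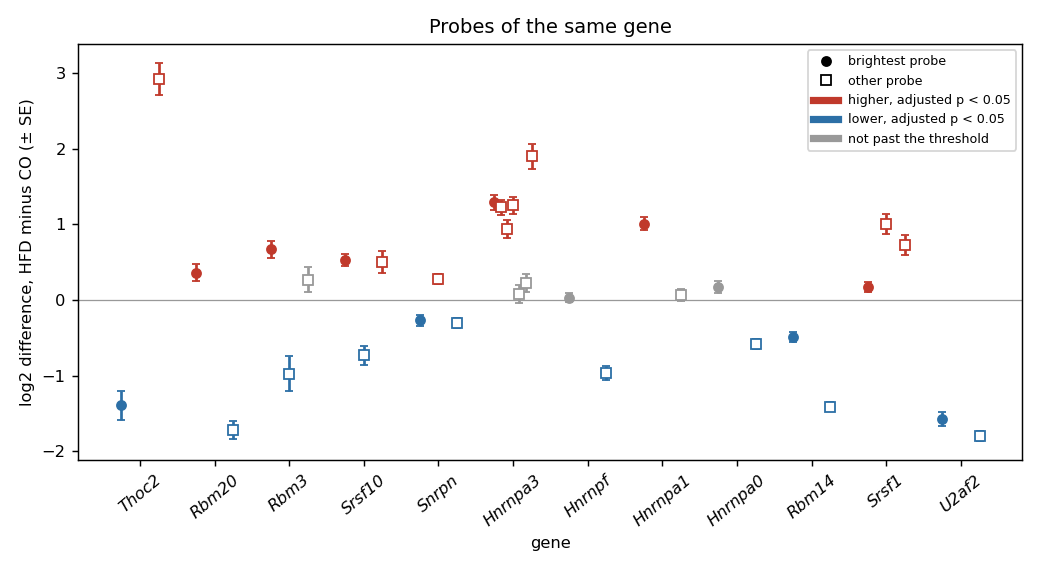
Log2 difference (HFD minus CO, vertical axis) with its standard error for each tested probe of 12 members, filled circles for the brightest probe and open squares for the others, red for higher, blue for lower and grey for not past the threshold. The 2 probes of Thoc2 stand at -1.40 and 2.92, and the 2 probes of U2af2 at -1.58 and -1.80, and the lower point of Rbm20 rests on HFD signals not well above background.

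The samples themselves differed in how the higher members varied. Among the 14 members that were at least 2-fold higher and measured in all samples, the lowest CO sample was replicate 2 or 5 in 13, and the highest was replicate 3 or 4 in 13. Over all genes at least 2-fold higher in HFD offspring, replicate 2 or 5 was the lowest CO sample in 804 of 962 (83.6%). The highest CO sample was not counted over these genes. CO replicates 2 and 5 carry different leading label numbers, and replicates 2, 3, 4 and 5 were on the same slide. The cause of this order of the CO samples was not tested. The SD was smaller in HFD than in CO samples in 14 of the 15 members at least 2-fold higher (93.3%). The same held for 70.0% of all members and 59.8% of all genes tested, sets not chosen for a 2-fold increase. All genes at least 2-fold higher were not compared in their SD. In these 15 members the median SD was 0.09 in HFD and 0.43 in CO samples on the log2 scale. For the 33 lower members the median SD was 0.10 in HFD and 0.11 in CO samples, and over all genes tested 0.13 in HFD and 0.16 in CO samples. Without CO replicates 2 and 5, an alternative chosen after the values had been seen, 43 members were higher and 28 lower (39.1% and 25.5%). In that fit 20.05% of all genes tested were higher and 36.9% lower.

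Genes of splicing and export outside these families, listed by role, were higher in 71 and lower in 70 of 205 tested (34.6% and 34.1%, beside 22.2% and 44.2% of all genes), with a median log2 difference of -0.03, and with spike-in scaling higher in 20 and lower in 152 (all genes 5.50% and 83.7%). The spliceosome core counted 17 higher and 32 lower of 78 (21.8% and 41.0%, median -0.10), close to the shares of all genes. Its leading genes were Cwc22, which brings the exon junction complex to the spliceosome, with a log2 difference of 2.23 (adjusted p = 5.20e-07), Cwc27 with a log2 difference of 1.39 (adjusted p = 1.32e-06), the helicase gene Ddx5 with a log2 difference of 1.00 (adjusted p = 1.33e-06) and the cyclophilin gene Ppie with a log2 difference of -1.11 (adjusted p = 9.56e-07). Splicing regulators counted 34 higher and 24 lower of 78 (43.6% and 30.8%, median 0.13). Here Taf15 with a log2 difference of -1.81 (adjusted p = 5.41e-08) and Celf3, a regulator enriched in neurons, with a log2 difference of -2.06 (adjusted p = 8.56e-08) were lower, and Scaf11 with a log2 difference of 1.02 (adjusted p = 1.06e-06) and Tial1 with a log2 difference of 0.91 (adjusted p = 1.19e-06) were higher.

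The exon junction complex, listed together with the factors of nonsense-mediated decay that bind it, counted 8 higher and 5 lower of 15 (median 0.17). These shares were 53.3% and 33.3%, beside 22.2% and 44.2% of all genes. The decay genes led this list. Upf2 averaged 0.53 ± 0.14 in HFD samples and -2.64 ± 0.54 in CO samples (SD, n = 6 and 5, adjusted p = 3.78e-07) and was 9.02-fold higher. Smg1, the kinase of Upf1, had a log2 difference of 1.49 (adjusted p = 2.58e-07) and Upf3b a log2 difference of 1.78 (adjusted p = 9.88e-07), all 3 without overlap between groups, while Smg5 was lower with a log2 difference of -0.44 (adjusted p = 0.00112). Of the core genes Magohb was higher with a log2 difference of 0.67 (adjusted p = 4.49e-06), Eif4a3 lower with a log2 difference of -0.42 (adjusted p = 2.25e-04), and Casc3 did not pass with a log2 difference of 0.07 (adjusted p = 0.302). Rnps1, known as a peripheral factor of the complex, was lower with a log2 difference of -0.43 (adjusted p = 6.98e-05). Acin1, another peripheral factor, gave -0.43 on its brightest probe (adjusted p = 8.83e-05). Its other probe gave 0.96 (adjusted p = 2.34e-06, limma over probes), so no direction can be given for Acin1. Export genes outside THO counted 12 higher and 9 lower of 34 (35.3% and 26.5%, beside 22.2% and 44.2% of all genes, median 0.00). Tpr, a gene of the nuclear pore basket, averaged -0.31 ± 0.13 in HFD samples and -2.46 ± 0.24 in CO samples (SD, n = 6 and 5, adjusted p = 1.01e-07) and was 4.44-fold higher, and its second probe gave 4.64 on the log2 scale. Sarnp, a partner of the THO complex in export, had a log2 difference of 1.30 (adjusted p = 2.33e-06), Ddx25 a log2 difference of 0.76 (adjusted p = 2.32e-06) and Cpsf6 a log2 difference of 0.99 (adjusted p = 3.02e-06).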

How the data were processed

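Hypothalamic RNA of 6 HFD and 5 CO samples was measured on Agilent mouse arrays with a single dye. For each array the deposited file is scanner output with intensity values, from which the Feature Extraction software (version 10.8 in the submitters' notes, 10.7.3.1 in the file headers) had subtracted the background. No normalization between arrays is given in the sources used here. The flags for spots well above background come from the same software.

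Processed signals were divided by their array's 75th percentile and then log2-transformed, without control spots and outlier spots, and spots of a probe were averaged. Probes were named through their unversioned accession in RefSeq's gene table (26363 of 39429 mouse probes, 19983 genes). Genes with a probe well above background on at least 5 of 11 arrays were tested, by their brightest probe, with limma 3.58.1 in R 4.3.3 (lmFit and eBayes, two-sided, Benjamini-Hochberg over 17193 genes, threshold 0.05). Other probes were tested in a fit over 31800 probes. On simulated arrays with 200 changed genes the fit was tested and recovered most of them. The simulated arrays had independent scatter and no difference between scan sessions, unlike the arrays measured here.

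Alternatives were quantile, median and spike-in scaling, normexp (offset 50, on median signals, since mean signals were not used here), no filter, a filter on all 11 arrays, the mean over probes, slide or replicate number as a block, each array left out, the Rank Product test of the methods (percentage of false positives under 0.001, 100 permutations) and an exact Mann-Whitney test. For single genes the text gives every CO value and the lowest, median and highest HFD value. This was done for the 8 largest increases and decreases, up to 3 genes per family with the smallest adjusted p, and 8 genes in the tables of the study. Among the largest increases 1 gene is not reported here. Rbm20 and Rbm3 were added for their opposite probes after their values had been seen. The members, lists and tests were chosen with earlier results of these data known. The number of arrays limits the precision.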

Additional observations from a re-analysis of the deposited data

Results flagged for a closer look

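Within each group of samples, the gap of the highest or lowest sample to its neighbour was set against the group's range. Of 220 groups (110 genes, HFD and CO) 12 had a sample that stood apart, and chance alone flags about 1 in 20 groups. HFD replicate 1 stood apart in 3 genes, with a log2 signal of 3.53 for Sf3b2 (next sample 3.37), 0.94 for U2af1l4 (next 1.24) and -4.59 for Rbm47 (next -3.34). HFD replicate 6 was highest for Rbm15 at -0.76 (next -0.99). CO replicate 4 was lowest in 4 genes, at 2.10 for Prpf31 (next 2.40), -3.03 for Rbm48 (next -2.89), 3.44 for Rbm5 (next 3.63) and 3.29 for Rbm42 (next 3.51). CO replicate 5 was lowest for Srsf12 at 0.47 (next 0.62) and for Rbm12b1 at -2.86 (next -2.27). CO replicate 2 was lowest for Snrpd3 at 1.76 (next 1.92), and CO replicate 3 highest for Prpf18 at 0.71 (next 0.53). With each of the 11 arrays left out in turn, 41 to 48 members were called higher and 31 to 34 lower, where all genes had 20.8 to 22.2% and 41.0 to 44.1%.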

How the results depend on the processing

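Scaling and the choice of test moved the results most. With spike-in scaling 14 members were higher and 80 lower (other pathway genes 20 and 152, all genes 5.50% and 83.7%), the members' median was -0.58, and Srsf10 (-0.14), Snrpd1 (-0.13) and Thoc7 (-0.014) changed sign. Of the 78 called members 25 changed sign there, 16 of them past the threshold in the other direction. The members' median was 0.16 with scaling to the median and 0.023 with normexp, which kept 34 of the 45 higher and 22 of the 33 lower calls. With the mean over probes Thoc2 turned to 0.76. The Rank Product test called 7 members higher (Thoc2l, Prpf39, Thoc1, Sf3b1, Rbm25, Rbm41, Rbm39) and 0 lower, where all genes had 2.47% and 2.06%. It called 6 of the other pathway genes higher and 2 lower, and 7 members were lower at its unadjusted p under 0.05. The exact Mann-Whitney test called 44 members higher and 32 lower, where all genes had 21.5% and 41.9%. Why these results moved was not tested, beyond the shift of -0.68 in all genes with spike-in scaling. The numbers of the replicates did not pair the samples (correlations of deviations -0.10 to 0.18), and a replicate block gave 40 higher and 30 lower (all genes 20.4% and 41.5%). Leaving out each array in turn gave 41 to 48 higher and 31 to 34 lower (all genes 20.8 to 22.2% and 41.0 to 44.1%), with 41 and 31 members called in all 11 fits. Rbm3 and Rbm20 gave -0.0073 and -0.31 with spike-in scaling and -0.014 and -0.68 with the mean over probes. Of 31 genes given by sample, 25 kept their sign in every alternative that was run, and Srsf10, Snrpd1, Thoc7, Thoc2, Rbm3 and Rbm20 did not. With the leading number of the CO labels as a random block, added after the data had been seen, 45 were higher and 33 lower (all genes 21.9% and 43.7%).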
